A study of Mus musculus with 2 samples.

Results

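A set of 7 genes of the phagocyte NADPH oxidase and of neutrophil extracellular trap (NET) release was followed through mouse periodontal ligament, the connective tissue that holds the tooth root to the alveolar bone. They were Cybb, Cyba, Ncf1, Ncf4, Rac2, Padi4 and Gsdmd, taken by symbol: 7 of the 32285 genes counted in both libraries, each matching a single row. The OTM (orthodontic tooth movement) library came from the left side of the upper jaw of male C57BL/6J mice aged 8 weeks, where the first molar had been pulled forward with 10 g of force over 6 days, and the control library from the unloaded right side, per the series' design. The treatment text of the control sample repeats the force given to the OTM sample, so the library was taken as control from its title, and every OTM over control value rests on that title. Ligament left on the roots and inside the sockets of 5 mice per group was pooled, its cells freed with collagenase and trypsin, and sequenced on droplets with 3' ends counted by unique molecular identifier (UMI). Each group was 1 pooled library, so no spread between mice could be estimated and no test was made; every interval below is a 95% interval that covers counting error only.

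The phagocyte oxidase moves electrons from NADPH across a membrane onto oxygen and so makes superoxide, which neutrophils and macrophages use against microbes. Its membrane core is made of the products of Cybb and Cyba, and cytosolic subunits, among them the products of Ncf1 and Ncf4, join the core together with a Rac GTPase when the cell is activated. NETs are strands of chromatin and granule proteins cast out by neutrophils: the enzyme encoded by Padi4 turns histone arginines into citrulline and loosens the chromatin, and the product of Gsdmd forms membrane pores once a protease has cut it. Neutrophils make their granule proteins early in the bone marrow, and transcripts of those proteins decline as the cells mature.

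After filtering, the OTM library held 1412 cells with 35518568 UMIs (median 19583 per cell) and the control library 348 cells with 5593726 UMIs (median 14877), and the libraries shared 0 cell barcodes. Cells were clustered without the 7 members and without the related genes described below, apart from Prtn3 and Ctsg, which are also progenitor markers. The levels of the genes left out shaped neither clusters nor classes. The class names rest on transcripts alone and are written with "-like" for that reason. The fibroblast-like cells, the largest class of the OTM library, had Aspn and Postn among their leading genes, both known from periodontal ligament. The neutrophil-like class held 148 OTM and 33 control cells and expressed all 15 neutrophil markers in either library. It was divided by the share of a cell's UMIs in 9 granule genes (Ltf, Ngp, Camp, Lcn2, Chil3, Cd177, Itgb2l, Mmp8, Ifitm6) at 0.641%, the threshold that best separated the cells. The granule-low part was 83 of 148 OTM cells (56.1%, 47.7% to 64.2%) and 11 of 33 control cells (33.3%, 18.0% to 51.8%), with 27 OTM and 2 control cells within 0.25 of the threshold on the log10 scale. The granule-low cells had a median of 4107 UMIs in the OTM library and 4966 in the control library, against 8486 and 14041.5 UMIs in the granule-rich cells of the OTM and control libraries.

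**Figure D1:**
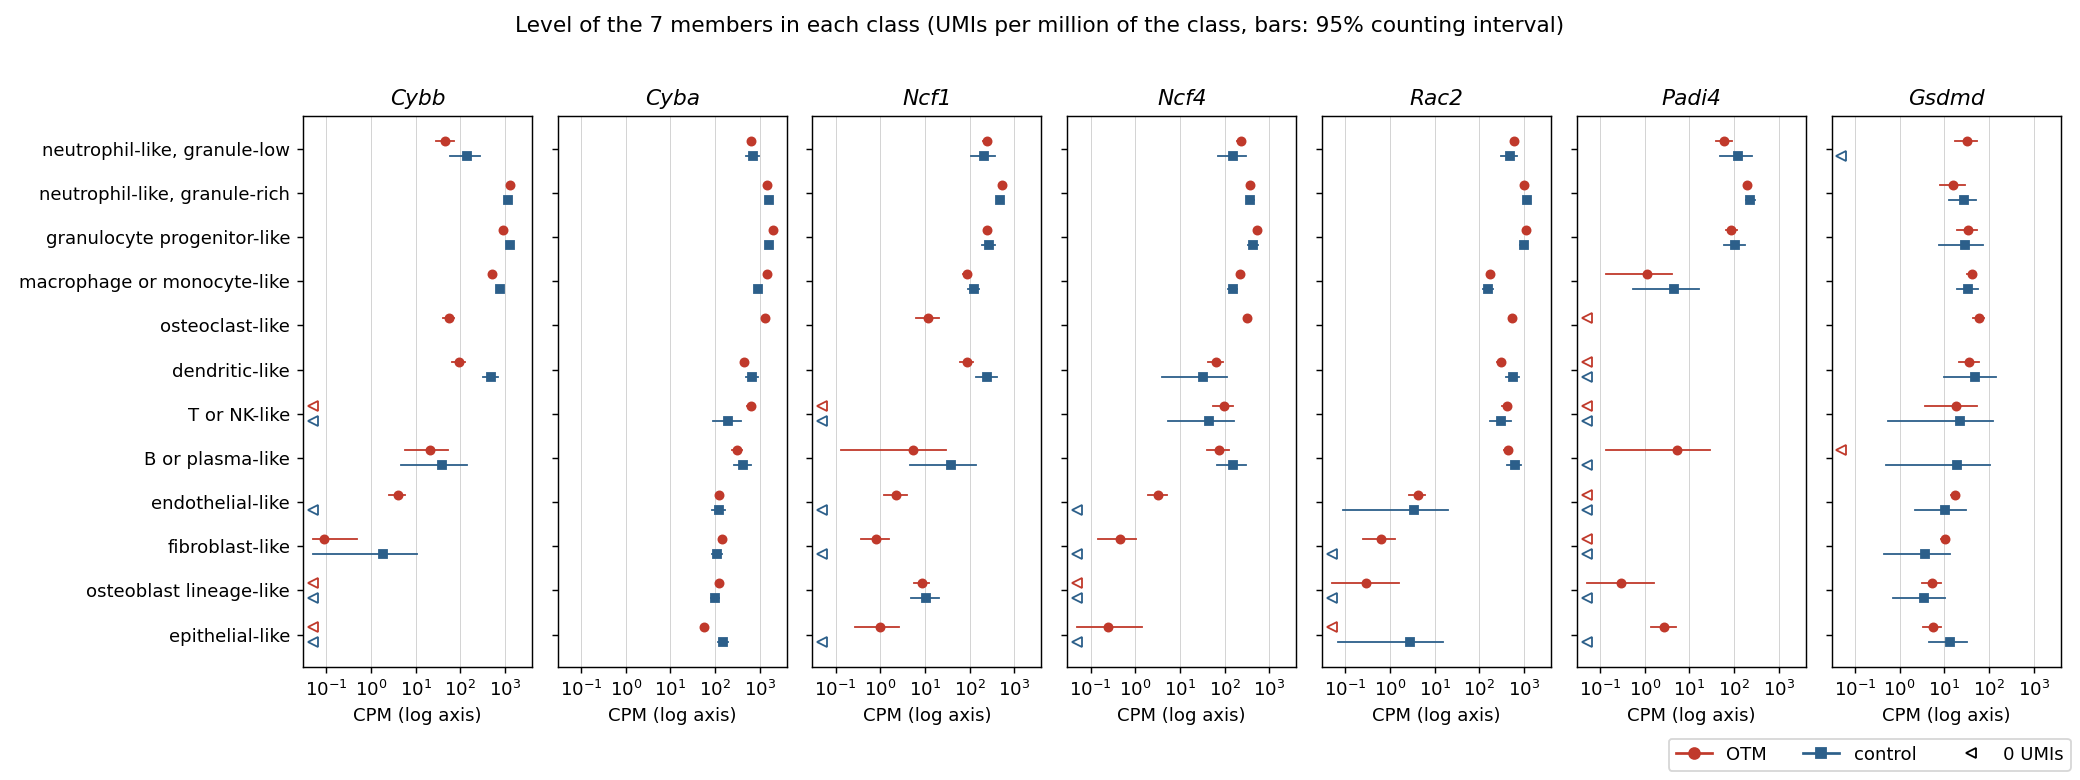
Counts-per-million (CPM) of the class total (log axis) of each member in 12 classes, OTM as circles above control as squares, with 95% counting intervals; open triangles mark classes with 0 UMIs. Cybb, Ncf1 and Padi4 were high in few classes, Rac2 and Ncf4 were spread over the blood cell classes, and Cyba and Gsdmd were found in nearly all.

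Cybb encodes the catalytic, electron-carrying subunit of the oxidase. Of its UMIs in the OTM library, 36.5% came from granule-rich neutrophil-like cells, 37.2% from macrophage or monocyte-like cells and 20.3% from granulocyte progenitor-like cells, and in the control library 40.5%, 35.6% and 19.2%. In counts-per-million of the class total (CPM), the granule-rich part stood at 1293 in the OTM library (885 UMIs, 1210 to 1382) and at 1149 in the control library (375 UMIs, 1035 to 1271). Next in the OTM library came the progenitors at 914 CPM (835 to 999) and the macrophages or monocytes at 517 CPM (484 to 552), with intervals that did not overlap. Dendritic-like cells had 91.8 CPM (65.6 to 125), osteoclast-like cells 55.1 CPM (41.7 to 71.6) and granule-low neutrophil-like cells 46.2 CPM (28.2 to 71.4), and each of these overlapped its neighbour. In the control library the progenitors (1269 CPM, 5 cells) and the granule-rich part could not be told apart, and the macrophages or monocytes stood at 760 CPM. The 4 control dendritic-like cells had 482 CPM (30 UMIs, 325 to 688), an interval above that of OTM dendritic-like cells. Fibroblast-like cells held a single Cybb UMI in each library, and osteoblast lineage-like and epithelial-like cells none in either.

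Because Cybb showed the largest difference between the neutrophil parts of all members, its promoter is shown, with that of Ncf1, the other member among those searched whose promoter held the same motif. RefSeq promoters (GRCm38.p6) were found for 4 of the 7 members (Cybb, Cyba, Ncf1 and Padi4), and the 250 bases before the start were searched on both strands for a PU.1 core (GAGGAA), a C/EBP motif (TTGCNNAA) and an interferon-regulatory-factor (IRF) motif (GAAA, any 2 bases, GAAA). Capitals mark the IRF motif on either strand, chosen for display after the matches were seen. Both genes lie on the minus strand, and each sequence is written 5′ to 3′ in the direction of transcription, up to the base before the start; they cover chrX:9469325-9469574 for Cybb and chr5:134229626-134229875 for Ncf1.
Cybb: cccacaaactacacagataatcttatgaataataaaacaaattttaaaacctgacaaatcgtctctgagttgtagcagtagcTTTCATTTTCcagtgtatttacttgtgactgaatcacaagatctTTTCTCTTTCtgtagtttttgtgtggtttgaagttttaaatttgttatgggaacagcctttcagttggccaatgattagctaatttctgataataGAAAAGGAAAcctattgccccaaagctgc
Ncf1: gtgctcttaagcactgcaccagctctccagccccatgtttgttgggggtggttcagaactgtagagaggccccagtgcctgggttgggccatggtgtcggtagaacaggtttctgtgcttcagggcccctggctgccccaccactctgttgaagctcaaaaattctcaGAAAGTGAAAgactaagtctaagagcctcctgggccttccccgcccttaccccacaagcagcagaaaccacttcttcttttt
Cybb held 3 matches, with first bases at -168, -124 and -29 from the start, and Ncf1 held 1, at -82. Cyba and Padi4 held none, and none of these 4 promoters held the other motifs. Ncf4, Rac2 and Gsdmd were not searched. Of all 32851 RefSeq promoter windows of this length, 2.98% held the IRF motif at least once and 4 windows (0.0122%) at least 3 times, while 23.3% held the PU.1 core and 9.56% the C/EBP motif. These are matches of letters only. In the GENCODE annotation the Cybb gene (X, 9435252 to 9487771, minus strand) reaches further upstream through 1 longer transcript, in an intron of which this window lies. Ncf1 lies at chr5:134220053-134229625 (minus strand), Cyba at chr8:122424776-122432930 (minus), Padi4 at chr4:140745865-140774236 (minus), and Ncf4 (chr15:78244801-78262580, plus), Rac2 (chr15:78559167-78572783, minus) and Gsdmd (chr15:75862327-75867408, plus) all on chromosome 15; all 7 are protein-coding.

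Within the neutrophil-like class, Cybb separated the parts far more than the other members did. The granule-low part had 20 UMIs over 83 OTM cells and 8 UMIs over 11 control cells, and a UMI was seen in 8 of the 83 and 2 of the 11 cells. In the granule-rich part, 54 of 65 OTM cells and 20 of 22 control cells had at least 1 Cybb UMI, with medians of 9 and 10.5 and maxima of 59 and 74 UMIs per cell. Granule-low over granule-rich, the log2 ratio of CPM was -4.81 in the OTM library (-5.52 to -4.17), a 28.0-fold lower level. The control library gave -3.04 (-4.26 to -2.04), or 8.20-fold lower. After every cell was thinned to 1500 UMIs, Cybb was detected in 3.66% of granule-low and 71.9% of granule-rich OTM cells and in 18.2% and 54.5% of control cells, against 0% of fibroblast-like cells of either library, which serve as a background. The fibroblast-like cells had medians of 24049.5 UMIs in OTM and 16273 UMIs in control before thinning. Neutrophil markers, a list that holds granule genes such as Ltf and Camp, were detected at 15 of 15 in granule-low OTM cells and 14 of 15 in granule-low control cells, where Ltf was at 0. They summed to 135583 and 148482 CPM there, against 370473 and 419669 CPM in granule-rich OTM and control cells.

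**Figure D2:**
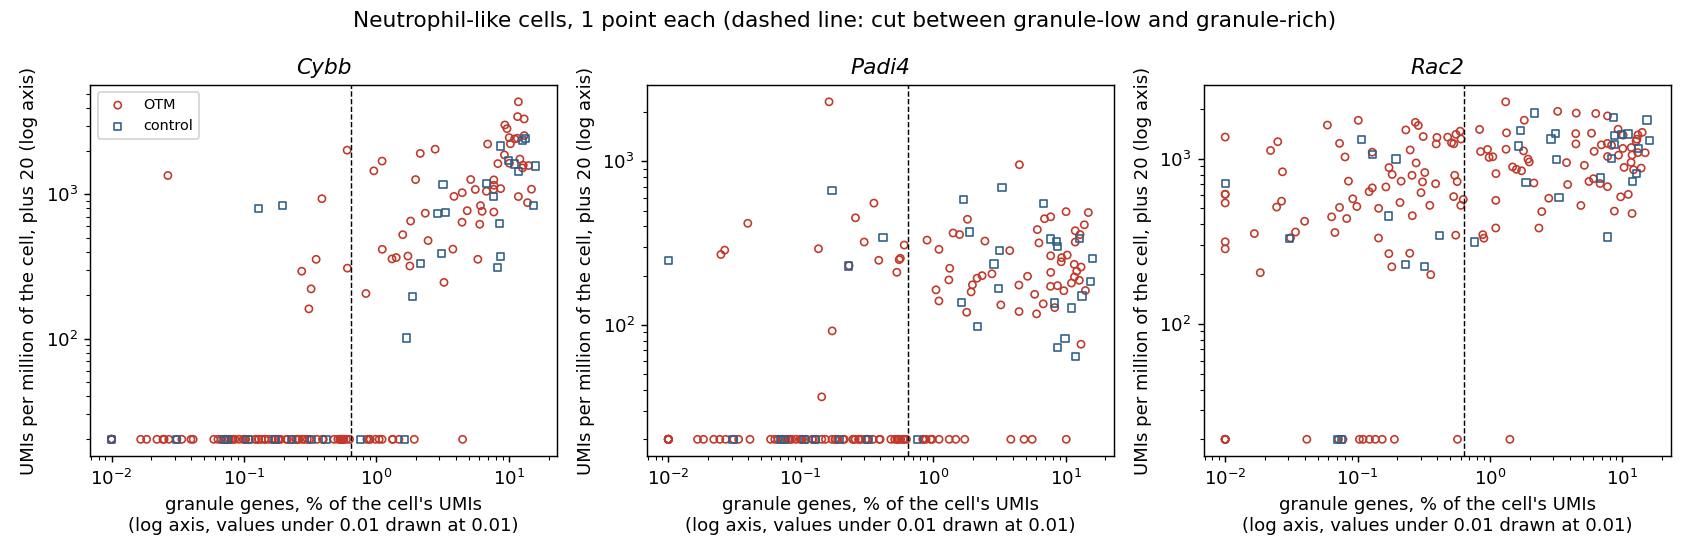
Each neutrophil-like cell as a point, OTM circles and control squares: share of its UMIs in the 9 granule genes (log axis, shares under 0.01% drawn at 0.01%) against its CPM of Cybb, Padi4 or Rac2 with 20 added (log axis), with the threshold of 0.641% dashed. Left of the line most cells sit at 0 Cybb and 0 Padi4 UMIs (8 of 83 OTM cells had Cybb and 16 of 83 had Padi4), while Rac2 was present on both sides.

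The question behind this split was whether the oxidase and NET genes differ between neutrophils that carry granule transcripts and those that have lost them. In the OTM library all 7 members could be measured (at least 5 UMIs expected in each part at equal CPM): 4 were at least 2-fold lower in the granule-low part, where 14.3% of 5470 measurable genes were, and 1 was higher, where 23.4% of genes were (37.6% in either direction). In the control library 5 of 6 measurable members were at least 2-fold lower, where 18.8% of 1283 genes were. The median log2 ratio of the measurable members was -1.10 in the OTM library and -1.23 in the control library, against 0.20 and 0.26 over all measurable genes. The number past 2-fold in the OTM library rested on values close to that limit: 5 in all, it was 3 when cells were not filtered, 2 when each cell counted equally, 2 when cells were thinned and 6 when granule, S100a8, S100a9 and mitochondrial genes were left out of the total, and Cybb and Padi4 stayed past it in all settings run.

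**Figure D3:**
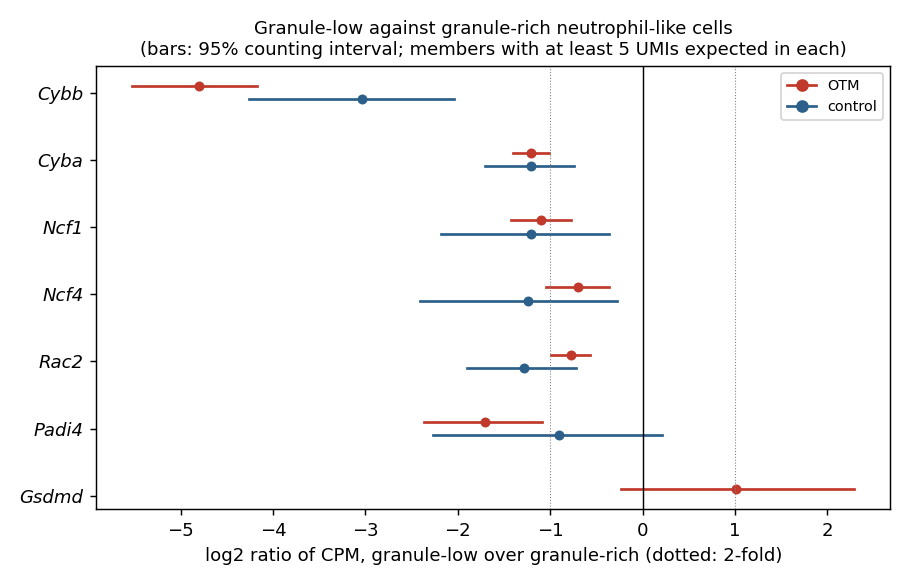
Log2 ratio of CPM, granule-low over granule-rich, for each measurable member, OTM above control, with 95% counting intervals and 2-fold as dotted lines. Cybb lies furthest left at -4.81 in OTM and -3.04 in control; Gsdmd alone lies right of 0.

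Cyba encodes the small partner that stabilises the catalytic subunit in the membrane. Granule-low cells had 275 UMIs (636 CPM, 563 to 715) in the OTM library and 40 UMIs (700 CPM, 500 to 954) in the control library. Granule-rich cells had 1004 UMIs (1467 CPM, 1378 to 1561) in OTM and 528 UMIs (1617 CPM, 1482 to 1761) in control. The log2 ratio, granule-low over granule-rich, was -1.21 in either library (-1.40 to -1.01 in OTM, -1.71 to -0.74 in control). Every granule-rich cell had at least 1 Cyba UMI, as did 71 of 83 granule-low OTM cells and all 11 granule-low control cells. After thinning to 1500 UMIs, a Cyba UMI was seen in 57.3% of granule-low OTM and 63.6% of granule-low control cells, against 19.2% and 17.9% of OTM and control fibroblast-like cells; before thinning the fibroblast-like shares were 90.3% and 86.7%. Those fibroblast-like shares are no measure of free RNA for Cyba. It stood at 140 CPM in OTM and 112 CPM in control fibroblast-like cells, while erythroid-like cells had 28.8 CPM in OTM and 0 UMIs in control.

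Ncf1 encodes the cytosolic organiser that carries the other subunits to the membrane, and Ncf4 a regulatory subunit that binds a phosphoinositide of the phagosome. Ncf1 had 243 CPM in granule-low OTM cells (105 UMIs) and 210 CPM in granule-low control cells (12 UMIs), against 519 CPM (355 UMIs) and 484 CPM (158 UMIs) in the granule-rich cells of the OTM and control libraries. Its log2 ratio was -1.10 (-1.42 to -0.78) in OTM and -1.20 (-2.19 to -0.36) in control. Ncf4 had 231 CPM in granule-low OTM cells (100 UMIs) and 158 CPM in granule-low control cells (9 UMIs), against 376 and 374 CPM in the granule-rich cells of OTM and control. Its ratios were -0.70 (-1.05 to -0.36) and -1.25 (-2.41 to -0.27), with intervals that overlap.

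Rac2 encodes the haematopoietic Rac GTPase that switches the assembled oxidase on. It was found in most neutrophil-like cells: 68 of 83 granule-low OTM cells and 9 of 11 granule-low control cells, and 64 of 65 and 22 of 22 granule-rich cells of OTM and control. Its level was 594 CPM (524 to 671) in granule-low and 1019 CPM (944 to 1097) in granule-rich OTM cells, a log2 ratio of -0.78 (-0.99 to -0.57). The control values were 473 CPM (312 to 688) and 1152 CPM (1038 to 1274), a log2 ratio of -1.28 (-1.91 to -0.72).

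Padi4, the histone-citrullinating enzyme, was nearly confined to granulocytes. Neutrophil-like cells held 71.7% of its 223 UMIs in the OTM library and 81.2% of its 101 UMIs in the control library, and progenitors held 21.1% and 14.9%. Granule-low cells had 60.1 CPM (26 UMIs, 39.3 to 88.1) in OTM and 123 CPM (7 UMIs, 49.3 to 253) in control. Granule-rich cells had 196 CPM (134 UMIs, 164 to 232) in OTM and 230 CPM (75 UMIs, 181 to 288) in control. The log2 ratio was -1.70 (-2.37 to -1.09) in the OTM library, and -0.91 in the control library with an interval that included 0 (-2.27 to 0.21). Macrophages or monocytes had 2 Padi4 UMIs in each library, and endothelial-like, fibroblast-like, dendritic-like and osteoclast-like cells had none; 11 UMIs in 10 of 93 epithelial-like OTM cells were the most outside the granulocytes.

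Gsdmd, the pore-forming protein, behaved differently. It had 14 UMIs in 14 of 83 granule-low OTM cells (32.4 CPM, 17.7 to 54.3) and 0 UMIs in the 11 granule-low control cells, with an interval that reached up to 64.6 CPM. Granule-rich cells had 11 UMIs (16.1 CPM) in OTM and 9 UMIs (27.6 CPM) in control, never more than 1 UMI per cell. The OTM log2 ratio of 1.01 had an interval that included 0 (-0.24 to 2.29), so no difference was detectable at this depth. Without the 2 granule-low and 1 granule-rich OTM cells that held more than 10 UMIs of endothelial markers, an alternative added after the data were seen, 4 members in place of 5 were past 2-fold.

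**Figure D4:**
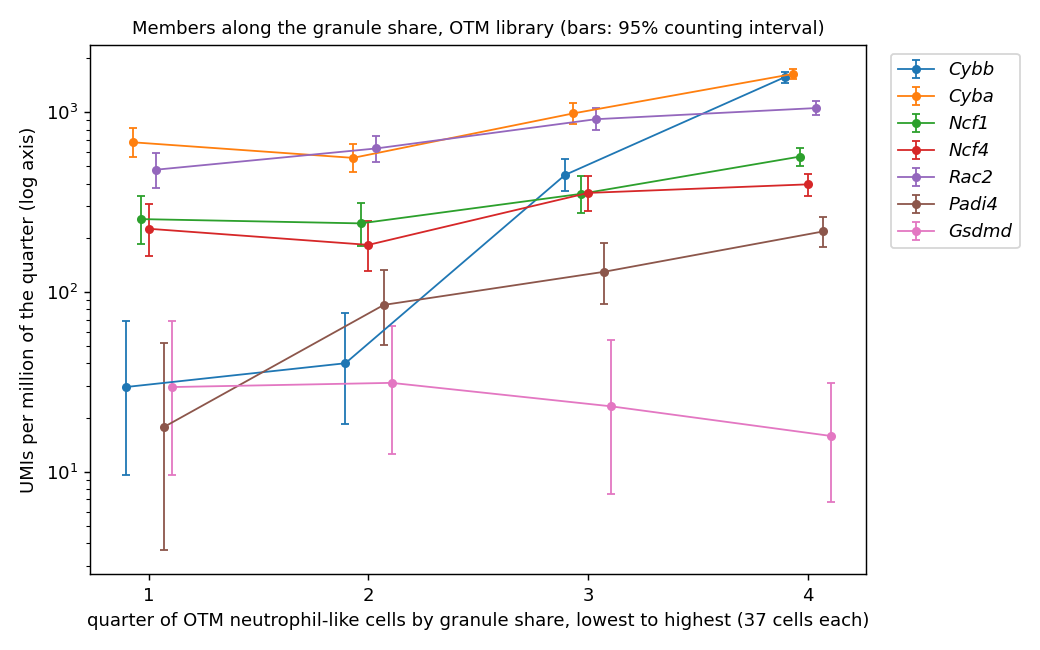
Members in the 148 OTM neutrophil-like cells divided into 4 bins of 37 cells by granule share, in CPM of the bin (log axis) with 95% counting intervals. Cybb runs over 29.6, 40.1, 448 and 1567 CPM from the lowest to the highest bin, while Gsdmd stays between 15.8 and 31.2 CPM.

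Divided into 4 equal bins by granule share, the OTM neutrophil-like cells had 29.6, 40.1, 448 and 1567 CPM of Cybb from the lowest bin to the highest. Padi4 stood at 17.7, 84.7, 129 and 217 CPM, the lowest bin resting on 3 UMIs. Rac2 had 479, 628, 914 and 1054 CPM and Cyba 680, 557, 983 and 1630 CPM. Ncf1 (254, 241, 351 and 566 CPM) and Ncf4 (225, 183, 356 and 397 CPM) did not differ between the 2 lowest bins beyond their intervals. The values of Gsdmd (29.6, 31.2, 23.1 and 15.8 CPM, on 5 to 8 UMIs each) had overlapping intervals throughout.

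Granulocyte progenitor-like cells, 14 in the OTM and 5 in the control library, are named for the stage at which neutrophils make their granule proteins. Ncf1 was 2.14-fold higher in granule-rich neutrophil-like cells than in progenitors of the OTM library (log2 1.10, 0.80 to 1.40) and 1.83-fold higher in the control library (log2 0.88, 0.35 to 1.43). Padi4 was 2.25-fold higher in OTM (log2 1.17, 0.68 to 1.68) and 2.15-fold higher in control (log2 1.10, 0.29 to 2.01). Cybb, Cyba, Ncf4 and Rac2 lay within 2-fold of the progenitors in both libraries, between -0.52 and 0.50 on the log2 scale. In this comparison 2 of 7 OTM members were higher and 1 lower (29.6% and 27.6% of all measurable genes), and 1 of 6 control members was higher (33.1%). The OTM values rest in part on 3 cells rich in primary granule enzymes. Without them, an alternative added after the data were seen, Padi4 was within 2-fold (134 UMIs in granule-rich cells and 40 in the other 11 progenitors; log2 0.78, 0.26 to 1.32), Ncf1 stood at 1.22 (0.86 to 1.59) and Cybb at 0.19, and 1 of 7 members was higher and none lower (32.5% and 16.6% of genes). Between progenitors of OTM and control 0 of 6 measurable members were past 2-fold (21.1% of genes were), with Cybb at -0.47 (-0.72 to -0.22) and Cyba at 0.26 (0.05 to 0.47). Without the same 3 cells Cybb was at -0.16 (-0.42 to 0.10) and Cyba still at 0.26 (0.04 to 0.48); 1 of the 5 control cells had only 696 UMIs.

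Against macrophages or monocytes, 4 of 7 members were at least 2-fold higher in granule-rich cells of the OTM library, where 11.0% of 8895 genes were, and 1 was lower, where 56.6% were. Ncf1 (log2 2.61, 2.33 to 2.90) and Rac2 (2.55, 2.36 to 2.75) were among the higher ones, as were Padi4 (134 and 2 UMIs) and Cybb (1.32, 1.19 to 1.46). Gsdmd was lower (-1.36, -2.42 to -0.43), and Cyba differed by -0.01 (-0.12 to 0.10). In the control library Ncf1 (1.96), Ncf4 (1.30), Rac2 (2.88) and Padi4 (5.64) were higher, so that 4 of 7 members were at least 2-fold higher, where 15.0% of 5896 genes were, and Cybb was 1.51-fold higher (0.60, 0.38 to 0.81).

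OTM was then set against control to see whether tooth movement altered these genes. In granule-rich neutrophil-like cells 0 of 7 members differed by 2-fold between OTM and control, where 17.3% of 4359 measurable genes did. The log2 ratios, OTM over control, were 0.17 for Cybb, -0.14 for Cyba, 0.10 for Ncf1, 0.01 for Ncf4, -0.18 for Rac2 and -0.23 for Padi4, and all 6 intervals included 0. Gsdmd gave -0.78 with a wide interval (-2.19 to 0.67) on 11 and 9 UMIs. The median of the 7 was -0.14, against 0.14 over all measurable genes.

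In granule-low cells 0 of 4 measurable members (Cyba, Ncf1, Ncf4, Rac2) were past 2-fold, where 24.8% of 1512 genes were, and all 4 intervals included 0. Cybb had 46.2 CPM on 20 UMIs in OTM and 140 CPM on 8 UMIs in control, with too few UMIs to be measured. With both parts pooled, 0 of 7 were past 2-fold (21.5% of 4995 genes were). Cyba (-0.37, -0.51 to -0.23), Padi4 (-0.58, -0.97 to -0.18), Cybb (-0.30) and Rac2 (-0.30) were then lower in OTM with intervals below 0, beside a granule-low share of 56.1% of OTM and 33.3% of control cells. The part of that share in these values was not tested. With granule genes, S100a8, S100a9 and mitochondrial genes left out of the total, the pooled ratio of Cyba was -0.59 and that of Cybb -0.52; with each cell classed by its own score that of Cybb was 0.09, and with thinned cells that of Rac2 was 0.18. Endothelial markers summed to 1010 CPM in granule-low OTM cells and 17.5 CPM in granule-low control cells, and to 314 and 21.4 CPM in granule-rich OTM and control cells. Nearly all lay in 3 OTM cells (427 of 437 UMIs in 2 granule-low cells and 205 of 215 in 1 granule-rich cell), and leaving those cells out moved none of the 46 log2 ratios computed beyond its interval.

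**Figure D5:**
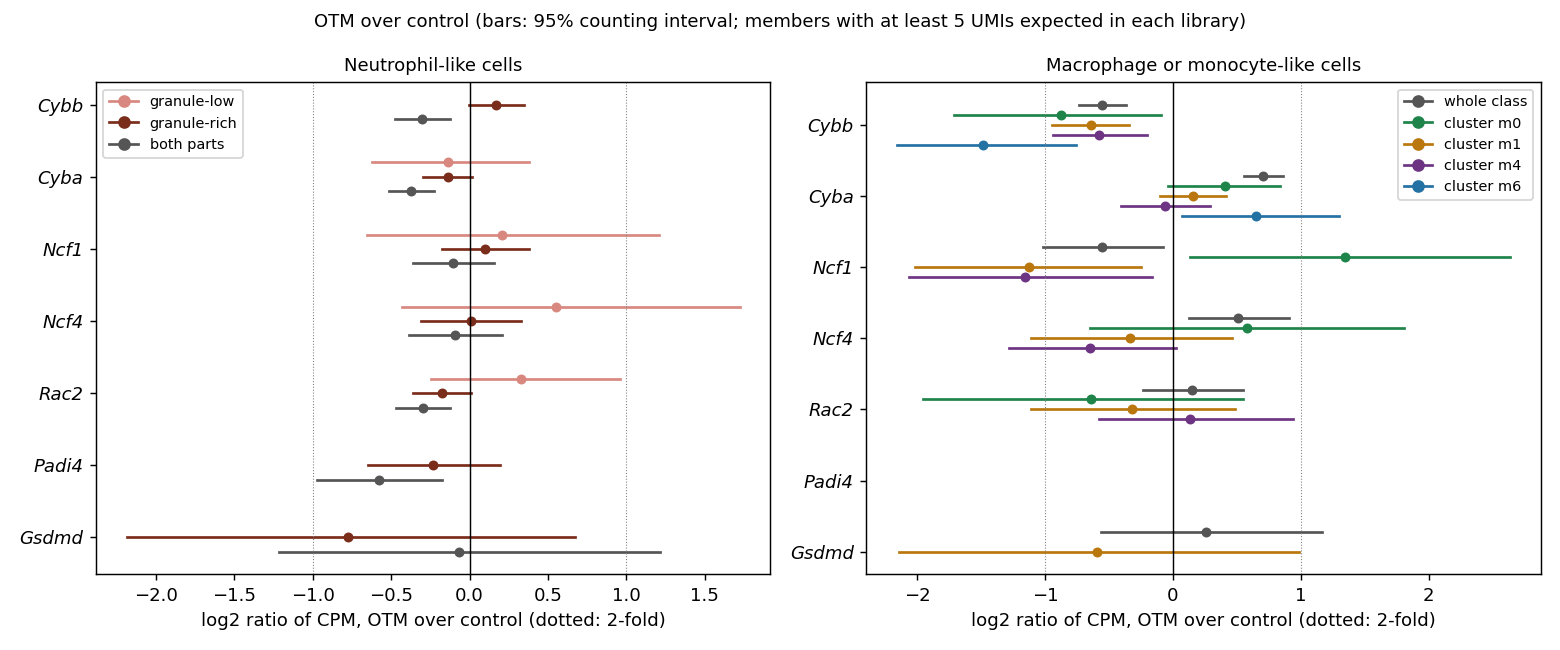
Log2 ratio of CPM, OTM over control, with 95% counting intervals and 2-fold as dotted lines, for neutrophil-like cells (left: granule-low, granule-rich, both parts) and macrophage or monocyte-like cells (right: the class and its clusters m0, m1, m4 and m6). No measurable member passes 2-fold in the classes; Ncf1 does so upward in m0 at 1.35 and downward in m1 at -1.12 and m4 at -1.15, and Cybb downward in m6 at -1.48.

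Macrophage or monocyte-like cells, 85 OTM and 35 control, showed 0 of 6 measurable members past 2-fold, where 31.9% of 7795 genes were. Cyba was higher in OTM (1477 CPM on 2580 UMIs, against 905 CPM on 393 UMIs in control; log2 0.71, 0.55 to 0.86), and so was Ncf4 (216 and 152 CPM; 0.51, 0.13 to 0.91). Cybb (517 and 760 CPM; -0.55, -0.74 to -0.37) and Ncf1 (84.7 and 124 CPM; -0.55, -1.01 to -0.08) were lower in OTM. Rac2 (0.15, -0.24 to 0.55) and Gsdmd (0.26, -0.56 to 1.17) had intervals that included 0. The class was made of 5 clusters in unequal shares: m2, with Lyz1, Arg1 and Tgfbi among its leading genes, held 24 OTM and 0 control cells.

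Cluster by cluster the picture was not uniform. Cybb was lower in OTM in m0 (-0.87, -1.71 to -0.09), m1 (-0.64, -0.95 to -0.34), m4 (-0.58, -0.93 to -0.20) and m6 (355 and 992 CPM; -1.48, -2.16 to -0.75), where control was 2 cells. Cyba, the member highest in the class ratio, had 0.40 in m0, 0.16 in m1 and -0.06 in m4, each with an interval that included 0, and 0.65 in m6 (1696 CPM on 430 UMIs in OTM, 1078 CPM on 25 UMIs in control; 0.07 to 1.30), while the OTM cells of m2 stood at 1699 CPM. Ncf1 was higher in OTM in m0 (157 CPM on 17 UMIs in OTM, 61.6 CPM on 10 UMIs in control; 1.35, 0.14 to 2.63). It was lower in m1 (63.3 and 138 CPM; -1.12, -2.02 to -0.25) and m4 (118 and 263 CPM on 41 and 14 UMIs; -1.15, -2.06 to -0.16). Ncf1 was thus the 1 member past 2-fold of 5, 6 and 5 measurable in m0, m1 and m4, where 21.9%, 31.9% and 32.0% of genes were. In m6 Cybb and Cyba were measurable, and 1 of the 2 was past 2-fold, where 35.6% of genes were. Without m2, an alternative added after the data were seen, the class ratio of Cyba was 0.55 and that of Cybb -0.30; with each cell classed by its own score Cyba reached 1.22, past 2-fold, and with each cell counted equally the ratio of Cybb was 0.06 and that of Ncf1 0.42. Markers of osteoclasts summed to 2101 CPM in this class in OTM (8 of 9 detected, Calcr at 0) and to 357 CPM in control (8 of 9), those of fibroblasts to 980 CPM (13 of 13) and 205 CPM (10 of 13), and their part in these ratios was not tested.

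Osteoclast-like cells, the multinucleated bone-resorbing relatives of macrophages, were seen only in the OTM library (23 cells), so they have no control value. Set against OTM macrophages or monocytes, they had some oxidase genes at similar and others at low levels, with 2 of 6 measurable members at least 2-fold lower (26.6% of 9857 genes) and 1 higher (8.96%). Cybb had 56 UMIs in 5 of 23 cells (55.1 CPM; log2 ratio -3.23, -3.65 to -2.84) and Ncf1 12 UMIs in 3 cells (11.8 CPM; -2.84, -3.83 to -1.99). Cyba had 1312 UMIs in all 23 cells (1292 CPM; -0.19, -0.29 to -0.10) and Ncf4 319 UMIs in 20 cells (314 CPM; 0.54, 0.32 to 0.76). Rac2 was 3.03-fold higher than in macrophages or monocytes (525 and 173 CPM; 1.60, 1.39 to 1.81). Gsdmd reached its highest OTM level here, at 59.1 CPM (60 UMIs, 45.1 to 76.1), an interval that overlapped that of macrophages or monocytes (41.2 CPM, 32.2 to 51.9). Macrophage markers summed to 4503 CPM in the osteoclast-like cells and 7424 CPM in OTM macrophages or monocytes.

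Outside the phagocytes, Rac2 was present at 444 CPM in OTM and 620 CPM in control B or plasma-like cells and at 405 and 309 CPM in OTM and control T or NK-like cells. The T or NK-like cluster (score 3.633) also scored for mast cells or basophils (2.815), and Cma1, a marker of these, was among its leading genes. Fibroblast-like cells had 7 Rac2 UMIs in OTM and 0 in control. In epithelial-like cells Cyba stood at 58.1 CPM in OTM (234 UMIs, 50.9 to 66.1) and 152 CPM in control (55 UMIs, 114 to 197). In T or NK-like cells it stood at 635 CPM in OTM (105 UMIs, 520 to 769) and 199 CPM in control (9 UMIs, 90.8 to 377). No ratio was computed for these classes. Cyba was also found in fibroblast-like cells at 140 CPM in OTM and 112 CPM in control, and in endothelial-like cells at 122 and 123 CPM. Gsdmd likewise had 117 UMIs in OTM and 2 in control fibroblast-like cells (10.4 and 3.79 CPM; log2 1.46, -0.43 to 4.52; 1 of 2 measurable members, where 9.57% of 8928 genes were at least 2-fold higher), and 99 UMIs in OTM endothelial-like cells (17.1 CPM). The fibroblast-like class was made of cluster 0 (263 OTM and 30 control cells) and of clusters 3 and 16, with 133 and 28 OTM cells and 0 control cells. Within cluster 0, set apart after the data were seen, the ratio of Gsdmd was 1.41 (-0.51 to 4.49) and that of Cyba 0.17 (-0.21 to 0.58). Ncf1 had 29 UMIs in 21 of 119 OTM and 9 UMIs in 5 of 32 control osteoblast lineage-like cells, most of them in cluster 7, which Bglap, Dmp1 and Ifitm5 lead (24 UMIs, 13.5 CPM in OTM and 8 UMIs, 10.9 CPM in control). Neither Ncf1 nor Cyba, the 2 measurable members there, differed by 2-fold between the libraries (12.2% of genes did). In the same osteoblast lineage-like cells Cybb and Ncf4 had 0 UMIs in both libraries and Rac2 1 UMI in OTM and 0 in control. In neutrophil-like cells, by contrast, Rac2 had 954 UMIs beside 460 of Ncf1 in OTM and 403 beside 170 in control. Gtf2ird2, which overlaps Ncf1 on the other strand, stood at 5.64 CPM in OTM and 9.56 CPM in control cells of cluster 7, and at 4.55 CPM and 9.48 CPM in OTM and control fibroblast-like cells, which had 9 and 0 Ncf1 UMIs.

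Over the libraries as a whole, which mix all classes, Cybb (68.3 and 166 CPM; log2 -1.28, -1.39 to -1.17), Ncf1 (23.9 and 51.5 CPM; -1.11, -1.30 to -0.91) and Padi4 (6.28 and 18.1 CPM; -1.52, -1.87 to -1.17) were at least 2-fold lower in OTM than in control: 3 of 7 members, where 9.52% of 15781 genes were. Granule-rich neutrophil-like cells supplied 1.93% of all OTM and 5.84% of all control UMIs. Whole-library sums alone do not separate fewer cells of a type from less RNA per cell. The granule-rich part was 65 of 1412 OTM and 22 of 348 control cells, with medians of 8486 and 14041.5 UMIs per cell. The part of either in these ratios was not tested. Rac2 (-0.68, -0.80 to -0.56), Ncf4 (-0.24), Cyba (-0.14) and Gsdmd (0.07) moved less, and the interval of Gsdmd included 0.

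Genes of the same pathways were read from 5 lists. Of 12 other oxidase subunits and assembly genes, all measurable in granule-rich cells, 1 was higher and 1 lower in OTM than in control, where 13.8% of genes were higher and 3.53% lower (17.3% in either direction, a share close to that of the list): Cybc1, a chaperone of the oxidase core (27.8 and 3.06 CPM; 19 and 1 UMIs; log2 3.18, 0.53 to 8.56), and Hvcn1, the proton channel that balances its charge (16.1 and 55.1 CPM; -1.78, -3.01 to -0.62). Arhgdib was lower in granule-low than in granule-rich cells (-1.99, -2.22 to -1.78 in OTM; -1.84, -2.41 to -1.32 in control), and Dock2, a Rac exchange factor, and Prkcb, a kinase that acts on the organiser subunit, differed by -0.15 and -0.28 between OTM and control neutrophil-like cells. The list as a whole had a median of 0.11 in OTM and -0.04 in control, granule-low over granule-rich, beside -1.10 and -1.23 for the members. Vav1, a Rac exchange factor, was the 1 gene of this list that was higher in granule-low OTM cells (1.56, 0.98 to 2.17), as Dock2 was in control (1.04, 0.55 to 1.51). In either library this was 1 gene higher and 1 lower, of 11 measurable in OTM and 7 in control, where 23.4% and 14.3% of OTM and 30.0% and 18.8% of control genes were.

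Among 10 partners of Gsdmd in pyroptosis, a lytic death that the pore brings about, 8 were measurable between the parts in OTM, and 4 were higher and 2 lower in granule-low cells, where 23.4% and 14.3% of genes were. Nlrp3, an inflammasome sensor, had 2624 CPM in granule-low and 440 CPM in granule-rich OTM cells (2.58, 2.39 to 2.76) and 3852 and 138 CPM in control (4.80, 4.34 to 5.30). Casp4, a caspase that cuts Gsdmd (1.26 in OTM, 1.69 in control), and Ninj1, which ruptures the membrane after the pore has formed (2.03 in OTM), were also higher there, and Gsdme (-1.46) and Pycard (-1.66) were lower in OTM. Between libraries, Nlrp3 in granule-rich cells was higher in OTM (440 and 138 CPM; 1.67, 1.22 to 2.16), 1 of 6 measurable partners past 2-fold, and Ninj1 in granule-low cells too (310 and 140 CPM; 1.14, 0.13 to 2.39), 1 of 3 (17.3% and 24.8% of genes). In granule-low cells Nlrp3 was lower in OTM than in control (2624 and 3852 CPM). The granule-rich part included 14 OTM cells and 1 control cell of cluster 5, which also held 82 OTM and 11 control granule-low cells. The part of this make-up in the Nlrp3 ratio was not tested. In macrophages or monocytes 2 of 9 measurable partners were lower in OTM and none higher, where 8.72% of genes were lower and 23.2% higher (31.9% in either direction): Il18, a cytokine let out through the pore (-1.13), and Nlrc4, another inflammasome protein (-1.07). Prkcb was the 1 oxidase assembly gene of 12 past 2-fold there (65.8 and 173 CPM; -1.39, -1.82 to -0.95).

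Of 12 genes that remove superoxide and peroxide, 9 were measurable between the parts in OTM, with 4 higher in granule-low cells and none lower, where 23.4% and 14.3% of genes were. They included Nfe2l2, the master regulator of antioxidant genes (1.47, 1.24 to 1.70 in OTM; 2.40, 1.95 to 2.85 in control), and Hmox1, which breaks down haem (1.66, 1.36 to 1.97 in OTM). Prdx1, a peroxidase, was higher in OTM than in control in granule-rich cells (24 and 3 UMIs; 1.93, 0.21 to 4.31), the 1 of 8 measurable genes past 2-fold there (17.3% of all genes). Prdx5, Txn1 and Gpx1 differed by -0.11, -0.07 and -0.03 between OTM and control neutrophil-like cells. In macrophages or monocytes Txn1 was higher in OTM (1447 and 184 CPM; 2.97, 2.65 to 3.31) and Hmox1 lower (374 and 856 CPM; -1.20, -1.38 to -1.01), 2 of 11 measurable genes (31.9% of all genes).

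The 9 genes of NET enzymes, other deiminases and NET removal gave 0 measurable members in neutrophil-like cells, where Elane, Mpo, Prtn3 and Ctsg had 0 to 3 UMIs in either library. Elane, Mpo, Prtn3 and Ctsg, the proteases and peroxidase of primary granules, had 1930, 929, 1971 and 877 UMIs in the 14 OTM progenitors, against 3, 0, 4 and 0 in the 5 control progenitors, and 3 OTM cells held 1929, 929, 1921 and 877 of them. Prtn3 and Ctsg are also markers that named this class. The same 3 cells held 22, 21 and 53 Cybb UMIs but 0, 1 and 6 Padi4 UMIs. In macrophages or monocytes 6 of the 9 were measurable, 5 higher and 1 lower in OTM, where 23.2% and 8.72% of genes were: Elane (5.26), Prtn3 (3.97), Mpo (2.56), Ctsg (0 UMIs in control) and Padi2, another deiminase (36 and 3 UMIs; 1.58, -0.08 to 3.92), were higher, and Dnase1l3, which digests extracellular chromatin, was lower (-1.04). By cluster, 4 of 4 measurable genes of this list were higher in m4 (18 OTM and 4 control cells), where 32.0% of genes were past 2-fold in either direction. In m1 the 1 measurable gene was not past 2-fold (31.9% of genes were), and in m0 and m6 0 were measurable. The second-highest marker score of m4 was that of granulocyte progenitors (0.898). Progenitor markers summed to 666 CPM in the whole class in OTM and 223 CPM in control, and their part in these ratios was not tested. The 9 genes of other NADPH oxidases and their partner proteins had 1 UMI in all neutrophil-like cells together. Nox4, which makes hydrogen peroxide, had 143 UMIs in OTM and 3 in control endothelial-like cells and 93 and 0 in OTM and control fibroblast-like cells.

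Over 15 points, each a class of at least 20 cells in 1 library, the genes whose log2(CPM + 10) ran closest to each member were named as a description: the points share libraries and depth, and a class in both libraries counts as a pair. Cybb was followed most closely by Tnfaip8l2 (Pearson r 0.948), Chil3 (0.946), which is itself one of the 9 granule genes, and Ly6c2 (0.945). Cyba ran with Lyz2 (0.948), Evi2a (0.944) and Cd84 (0.929), and Ncf1 with Hp (0.983), Hk3 (0.981) and Plbd1 (0.980). Ncf4 ran with Spi1, the gene of PU.1 (0.994), Nckap1l (0.977) and Cd52 (0.976), and Rac2 with Cd52 (0.970), Ptpn6 (0.969) and Dok3 (0.965). Padi4 ran with Ly6g (0.988), Pglyrp1 (0.986) and Wfdc21 (0.986), and Gsdmd with Snx10 (0.931), Sirpa (0.912) and Atp6v1a (0.911). Among the members themselves, Ncf4 and Rac2 were the closest pair (0.972) and Padi4 and Gsdmd the most distant (0.283).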

How the data were processed

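Single cells of 2 pooled libraries, 1 OTM and 1 control, were analysed. The deposited values were raw UMI counts per gene and barcode, made with Cell Ranger 7.0.1 per the submitters' processing notes, which also name the mouse builds mm10 and GRCm38 and Seurat; the cell filter is not given in the sources used here. As deposited, 1539 OTM barcodes carried 36010801 UMIs and 369 control barcodes 5723299. Barcodes with at least 200 genes and at most 20% mitochondrial UMIs were kept (127 OTM and 21 control barcodes were removed). Gene positions come from GENCODE M21 and promoters from RefSeq, both on GRCm38.

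Counts were scaled to 10000 per cell, log-transformed and clustered over both libraries (scanpy 1.11.5, leidenalg 0.10.2). The settings were 2000 variable genes, 30 components, 15 neighbours and resolution 1, and myeloid cells were clustered again at 0.8. Members and related genes other than Prtn3 and Ctsg were left out. Clusters were named by the highest of 18 marker scores (at least 3 markers detected, score at least 0.5) and left unnamed where leading genes went against the name. Scrublet called 8 OTM and 2 control cells as doublets (0.567% and 0.575%); they were kept, and removing them was an alternative. UMIs were summed per class and library and given as CPM with exact Poisson intervals, shares with exact binomial intervals and ratios with exact conditional binomial intervals; all cover counting error at 95% only, not mice or cells. A gene was measurable with at least 5 UMIs expected in each group at equal CPM; a difference is named past 2-fold, by size and not by a test. The ratios were tested on simulated sums with counting error alone, which cannot show how they hold against spread between cells or mice. Cell filters, class rules, thinning and the granule threshold were varied. All members are named, with the most abundant genes of each list and those past 2-fold, chosen by a fixed rule of 4 per list, apart from an item not reported here. The members and lists were chosen with earlier results of these data known.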

Additional observations from a re-analysis of the deposited data

Results flagged for a closer look

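Cyba moved in opposite directions between OTM and control in different classes: its log2 ratio, OTM over control, was 0.71 in macrophage or monocyte-like cells and 0.26 in granulocyte progenitor-like cells, and -0.37 in neutrophil-like cells, with counting intervals on either side of 0. The classes are mixtures whose make-up differed between the libraries: the Cyba ratio was -0.14 in granule-low (-0.62 to 0.38) and -0.14 in granule-rich cells (-0.29 to 0.01), and 0.40, 0.16 and -0.06 in macrophage or monocyte-like clusters m0, m1 and m4, all with intervals that included 0, and 0.65 in m6 (0.07 to 1.30), with 2 control cells. Ncf1 did so among macrophage or monocyte-like clusters, with 1.35 in cluster m0, -1.12 in m1 and -1.15 in m4, beside -0.55 for the class. Epithelial-like and T or NK-like cells lay outside these ratios. Cyba was lower in OTM in the former (58.1 and 152 CPM in OTM and control) and higher in the latter (635 and 199 CPM). With 1 library per group these differences between classes were not tested.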

How the results depend on the processing

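No paired analysis was possible because each group is 1 pooled library. The alternatives were run for OTM over control in neutrophil-like cells, their parts and macrophages or monocytes, and for granule-low over granule-rich cells; there no log2 ratio of a member at or past 2-fold changed sign. Progenitors and fibroblast-like cells had 1 alternative each, and ratios of single clusters, osteoclast-like cells, whole libraries and granule-rich cells over macrophages or monocytes had none. In granule-low cells 0 members were past 2-fold between OTM and control, and 1 when cells were thinned to 1500 UMIs (Rac2, 1.78). In macrophages or monocytes it was 0, but 1 with no cell filter or a stricter one, with doublets removed, with classes from single-cell scores (in these 4 settings Cyba, 1.03 to 1.22) and with thinned cells (Ncf4, 1.04), and 2 with each library clustered alone (Cyba, 1.20, and Ncf4, 1.03). Granule-low over granule-rich in OTM, 5 members were past 2-fold, but 3 with no cell filter or a stricter one, with classes from single-cell scores and with separately clustered libraries, and 2 with cells weighted equally and with thinned cells; the cause was not tested. The OTM ratio of Cybb lay between -5.62 and -3.79 and that of Padi4 between -2.16 and -1.34. Granule-rich over progenitor cells in OTM, 3 members were past 2-fold, and 1 without the 3 progenitors richest in primary granule enzymes. In granule-rich cells the OTM over control ratio of Cybb lay between -0.03 and 0.56. Few cells lie behind several control values: 11 granule-low cells (8 Cybb and 0 Gsdmd UMIs), 5 progenitors, and 4 cells in cluster m4 and 2 in m6.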
